A study of Mus musculus with 24 samples.

Results

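Sarcolipin and the genes of the calcium store were followed on 15 hippocampal mRNA arrays of neonatal mice. The set held 10 genes, of 36163 gene names on the array: Sln (sarcolipin), Pln (phospholamban), the calcium pumps Atp2a2 and Atp2a3, the ryanodine receptors Ryr1, Ryr2 and Ryr3, and the inositol trisphosphate (IP3) receptors Itpr1, Itpr2 and Itpr3. They were chosen by gene name, and every probe on the array that carried 1 of these names was kept, which gave 11 of 55681 probesets, with 2 probesets for Atp2a2 and 1 for each other gene. Sln was selected on a published lower level in the MS5 group of these same arrays, so its values are a description and carry no test. The other 9 genes were grouped with it for their function.

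The endoplasmic reticulum is the main calcium store of a neuron. SERCA pumps, which Atp2a2 and Atp2a3 encode, load it with calcium from the cytosol, and ryanodine and IP3 receptors are the channels that let calcium out again. Sarcolipin and phospholamban are small membrane proteins that bind the pump and lower its activity, and both are best known from muscle.

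All mice were C57BL/6 and labelled male, and hippocampi were taken on postnatal day 9 (P9). The 5 controls (Con) were untreated pups that stayed in the home cage with little handling. The 5 MS2 pups and the 5 MS5 pups received morphine at 2 or 5 mg/kg from P5 on, together with daily separation from the dam and brief apnea in nitrogen followed by oxygen. Stress and morphine were always given together, so each contrast with Con spanned both. The contrast of MS5 with MS2 was the one in which the assigned treatment differed by dose alone. Treated and control pups were littermates, the litter of each pup is not given in the labels, and an array is 1 pup's RNA from both hippocampi, so that p-values measure the spread between these arrays. In such bulk tissue, fewer cells of a type and less RNA per cell cannot be told apart.

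Levels are log2 values after background correction and quantile normalization, and they are compared between arrays for the same probe, never between probes. Of the 11 probesets, 10 were well above background on all 15 arrays. The exception was Pln.

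Several arrays stood apart. MS2 replicate 4 had the lowest summed signal of 10 hippocampal neuron markers, at 21000 against 60100 to 74000 in Con, and the highest of 8 thalamus and hypothalamus markers, at 51100 against 9570 to 10300 in Con. Its labelled tissue was therefore less well borne out by its markers than that of the other 14 arrays, and values that rest on it are given with and without it. MS2 replicate 5 had a median spot signal of 58.15, against 120.9 to 153.6 on the other arrays. MS5 replicate 9, labelled male, carried Xist at 11.34 (log2), against 5.91 to 6.08 elsewhere. In the MS5 group the summed signal of 16 choroid plexus markers ranged from 19900 to 338000, against 275000 to 421000 in Con. In the limma fit 14 of the 16 were lower than in Con at an unadjusted p under 0.05, against 2.43% of all probesets. The list holds genes with a published lower level in MS5 on these same arrays, such as Aqp1, Cldn2 and Kl. That count was thus partly set in advance.

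**Figure D1:**
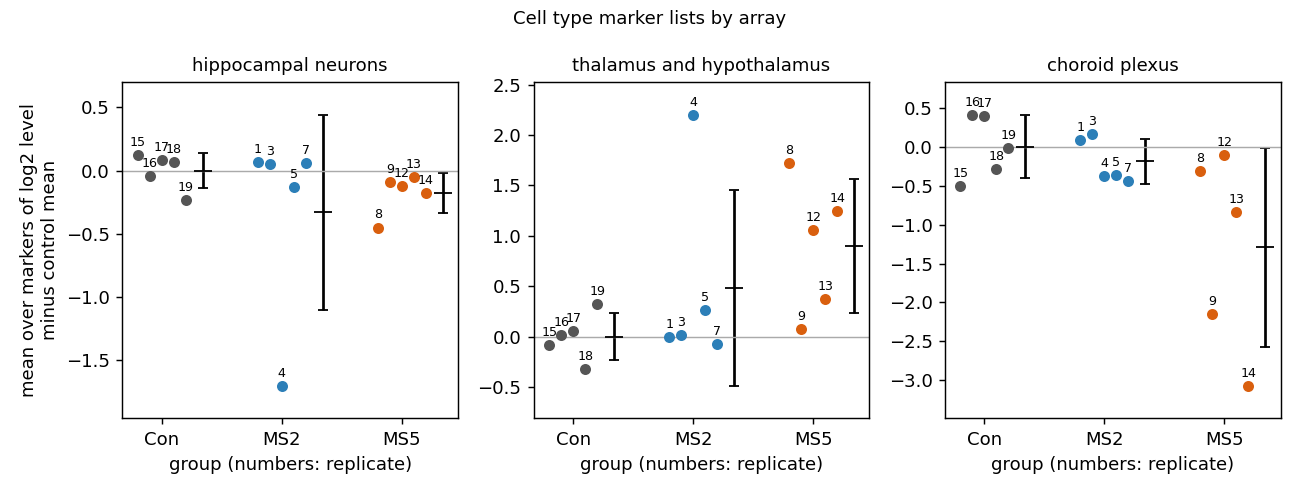
Mean log2 level of the markers of hippocampal neurons, of thalamus and hypothalamus, and of choroid plexus on each array, as the difference from the Con mean. Points are arrays labelled by replicate, and bars show the group mean and SD. MS2 replicate 4 lay at -1.7 for hippocampal neurons and at 2.2 for thalamus and hypothalamus, and MS5 replicates 9 and 14 lay at -2.15 and -3.07 for choroid plexus.

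The probes are 60 bases long, and their places are given in the mouse build mm9 as the scanner files state them. The probe of Sln lies at chr9:53701574-53701633 on the plus strand and that of Pln at chr10:53064944-53065003 on the plus strand. The Atp2a2 probes lie at chr5:122910660-122910719 (A_52_P168097) and chr5:122903704-122903763 (A_51_P451075), both on the minus strand, with starts 6956 bases apart. The first is assigned to transcripts NM_009722 and NM_001110140, and the second to NM_009722 and NR_027838, so the probes do not report the same set of Atp2a2 transcripts. The probe of Atp2a3 lies at chr11:72806289-72806348 on the plus strand. Those of the ryanodine receptors, all on the minus strand, lie at chr7:29788789-29789487 for Ryr1, chr13:11645812-11645871 for Ryr2 and chr2:112471537-112471596 for Ryr3. Those of the IP3 receptors lie at chr6:108501025-108501084 for Itpr1 and chr17:27259102-27259161 for Itpr3 on the plus strand, and at chr6:146060005-146060064 for Itpr2 on the minus strand. The Ryr1 probe covers 699 bases of genome with 60 bases, so it crosses at least 1 intron and reads spliced RNA. The letters AATAAA, the core of the polyadenylation signal, were found in 2 of the 11 probes (Ryr3 and Itpr3), against 10.1% of all 60-base probes. The exon or UTR of each probe was not looked up, since no annotation of that build was used here.

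The probe of Atp2a2 that separated a treated group from Con, and the Ryr1 probe that crosses an intron, are shown as deposited, from 5′ to 3′.
Atp2a2 A_52_P168097: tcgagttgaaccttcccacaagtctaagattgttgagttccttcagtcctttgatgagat
Ryr1 A_52_P391110: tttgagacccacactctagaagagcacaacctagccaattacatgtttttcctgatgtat

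Sarcolipin was the most variable of the 10 genes, and its levels in MS5 lay at or below the low end of the control range. In Con the levels were 8.68, 9.18, 10.16, 8.79 and 10.02 in replicates 15 to 19. In MS2 they were 10.01, 9.57, 6.87, 9.59 and 9.53 in replicates 1, 3, 4, 5 and 7. In MS5 they were 8.25, 8.44, 8.69, 8.34 and 8.80 in replicates 8, 9, 12, 13 and 14. The controls fell into a lower trio of 8.68 to 9.18 and a pair at 10.02 and 10.16. The MS5 arrays lay close together, and 3 of them lay below every control while 2 lay inside the control range. MS2 replicate 4 was the lowest of all 15 arrays.

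The mean Sln level was 9.36 ± 0.69 (SD, n = 5) in Con, 9.11 ± 1.27 in MS2 and 8.50 ± 0.23 in MS5. The MS5 mean differed from the Con mean by -0.86 (SE 0.49), a ratio of 0.551. The MS2 mean differed from Con by -0.25 (SE 0.49), and the MS5 mean from the MS2 mean by -0.61 (SE 0.49). Ordered by group mean, Con was highest, then MS2, then MS5, and no neighbours in that order were further apart than the spread within groups.

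The place of MS2 in that order rested on 1 array. Without MS2 replicate 4 the MS2 mean was 9.67 ± 0.22 (n = 4), above that of Con by 0.31 (SE 0.27), and the MS5 mean differed from it by -1.17 (SE 0.27). The remaining 4 MS2 arrays lay at 9.53 to 10.01. With array weights, which lower the influence of arrays that vary more, the MS2 difference from Con was also positive, at 0.18, and the MS5 difference was -0.90. The paper lists Sln at these same values, 0.18 for MS2 and -0.90 for MS5, which place MS2 above Con. The unweighted main fit thus has the opposite sign for MS2 to the published one. The paper's methods do not mention array weights.

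Each of the 2 slides held arrays of all 3 groups. Within slide 1 the MS5 mean of Sln differed from Con by -0.92 (2 arrays against 3) and within slide 2 by -0.95 (3 against 2). The MS2 difference from Con was 0.49 within slide 1 and -1.37 within slide 2, which held MS2 replicates 4 and 5, and the MS5 difference from MS2 was -1.41 and 0.42. The MS5 difference from Con thus had the same sign on both slides, and both contrasts with MS2 changed sign between them. Sln was selected on its MS5 level on these arrays, so the first of these signs was largely set in advance. Leaving out 1 array at a time moved the MS5 difference from Con between -1.03 (without Con replicate 15) and -0.66 (without Con replicate 17).

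**Figure D2:**
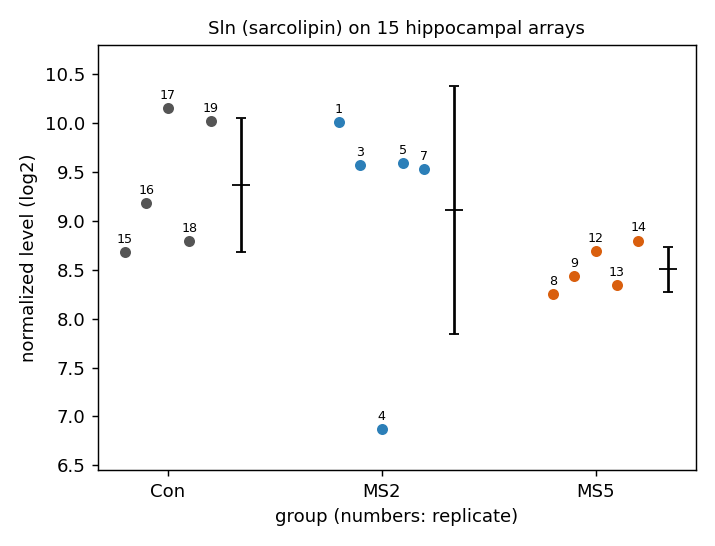
Normalized Sln level (log2) on each array by group, with replicate numbers beside the points. The bars show the group mean and SD, 9.36 ± 0.69 in Con, 9.11 ± 1.27 in MS2 and 8.50 ± 0.23 in MS5, and MS2 replicate 4 lies at 6.87.

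The spread of Sln within groups was wide beside the rest of the array. Its residual SD was 0.85 (log2), and 0.338% of all probesets had a larger one. The median over all probesets was 0.11. Without MS2 replicate 4 the residual SD of Sln was 0.45, with 1.18% of probesets above it.

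Markers of the muscle that Sln is best known from were measured beside it. Of 14 skeletal muscle genes, 11 were well above background on all 15 arrays, and 0 differed between MS5 and Con at an unadjusted p under 0.05. Casq1 was well above background on 14 arrays, Ckm on 4 and Mylpf on 1. The summed signal of the list was 3400 to 4170 in Con, 3040 to 4110 in MS2 and 3130 to 4210 in MS5. Of 6 heart muscle genes, 1 was lower in MS5 at that level, and Myl7, a heart light chain, was well above background on no array. The heart list summed to 2800 to 3130 in Con, 2820 to 3110 in MS2 and 2490 to 2860 in MS5. Of 10 smooth muscle and pericyte genes, 1 was lower in MS5, and Lmod1 was well above background on no array. That list summed to 12300 to 16600 in Con, 12500 to 16100 in MS2 and 11000 to 16300 in MS5. Each of the 3 muscle lists overlapped between groups, as Sln itself did between MS5 and Con, and their part in the Sln values was not tested.

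The choroid plexus signal was 324000, 83200, 338000, 236000 and 19900 on MS5 replicates 8, 9, 12, 13 and 14, beside Sln levels of 8.25, 8.44, 8.69, 8.34 and 8.80. Replicates 9 and 13 lay below every control in both, replicate 8 in Sln alone and replicate 14 in choroid plexus alone, and replicate 12 in neither. MS2 replicate 4, lowest in Sln, had a choroid plexus signal of 299000. The thalamus and hypothalamus signal was highest on that array, at 51100, and was 22400, 11000, 16400, 14300 and 15700 on MS5 replicates 8, 9, 12, 13 and 14. On MS2 replicates 1, 3, 5 and 7, where Sln was 10.01, 9.57, 9.59 and 9.53, it was 10600, 10900, 8950 and 10600. The highest Con value was 10300, so all 5 MS5 arrays and 4 of 5 MS2 arrays lay above Con in this sum. As the mean log2 difference from Con over the list, MS2 replicates 1, 3, 5 and 7 lay at 0, 0.02, 0.26 and -0.07. MS5 replicate 9 lay at 0.08, and all of these were inside the Con range of -0.32 to 0.32. In the limma fit 3 of its 8 genes were higher in MS5 at an unadjusted p under 0.05, against 1.47% of all probesets. Avp and Trh of this list have a published higher level in MS5 on these same arrays, so that count was partly set in advance. The part of choroid plexus, thalamus and hypothalamus in the Sln values was not tested. The 7 blood genes had a median difference of -0.40 between MS5 and Con, with 1 lower at that p, and summed to 102000 to 291000 in Con and 99300 to 202000 in MS5.

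The 5 genes whose pattern over the 15 arrays was most like that of Sln were Arhgap25, a GTPase-activating protein, with Pearson r = 0.89, Gse1 with 0.88, Pdk4, a kinase that inhibits pyruvate dehydrogenase, with 0.88, Icos, a T cell costimulator, with 0.87, and Elmod3 with 0.87. Spearman's rho was 0.80, 0.81, 0.75, 0.86 and 0.82. They were picked as the highest of all genes well above background, the points share their arrays and normalization, and all 5 were lowest on MS2 replicate 4. Without MS2 replicate 4 and Con replicate 17, the arrays farthest from the median of Sln, r was 0.73, 0.78, 0.74, 0.77 and 0.70. Among the store genes r with Sln was 0.77 for Itpr1, -0.76 for Itpr3, 0.60 for Ryr3 and 0.54 for Ryr2 over all 15 arrays, and 0.38, -0.56, 0.20 and -0.09 without those arrays. The likeness of Ryr2 and Ryr3 to Sln thus rested largely on those 2 arrays.

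Over the other 9 genes, few probesets passed even the unadjusted threshold. In MS5 against Con, 0 of 10 probesets passed an unadjusted p under 0.05 in the limma fit, against 3.9% of all probesets. In MS2 against Con 1 of 10 passed, against 4.17%, and in MS5 against MS2 0 of 10, against 3.97%. With the added demand of a fold above 1.5, 0 of 10 passed in any of the 3 contrasts, against 0.228%, 0.0233% and 0.129% of all probesets. After Benjamini-Hochberg adjustment 0 members passed, and so did 0 of all 55681 probesets in each contrast, with a smallest adjusted p of 0.635 for MS5 against Con, 0.97 for MS2 against Con and 1 for MS5 against MS2. The members' median difference was -0.01, 0.01 and 0 in that order, beside a median of 0 over all probesets each time. Their differences ran from -0.19 to 0.12 in MS5 against Con, from -0.24 to 0.21 in MS2 against Con and from -0.10 to 0.11 in MS5 against MS2. Without MS2 replicate 4 the last range was -0.17 (Itpr1) to 0.09 (Itpr3). With 10 probesets, counts of 0 or 1 are near what the shares over all probesets would give, and are no result about these genes.

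**Figure D3:**
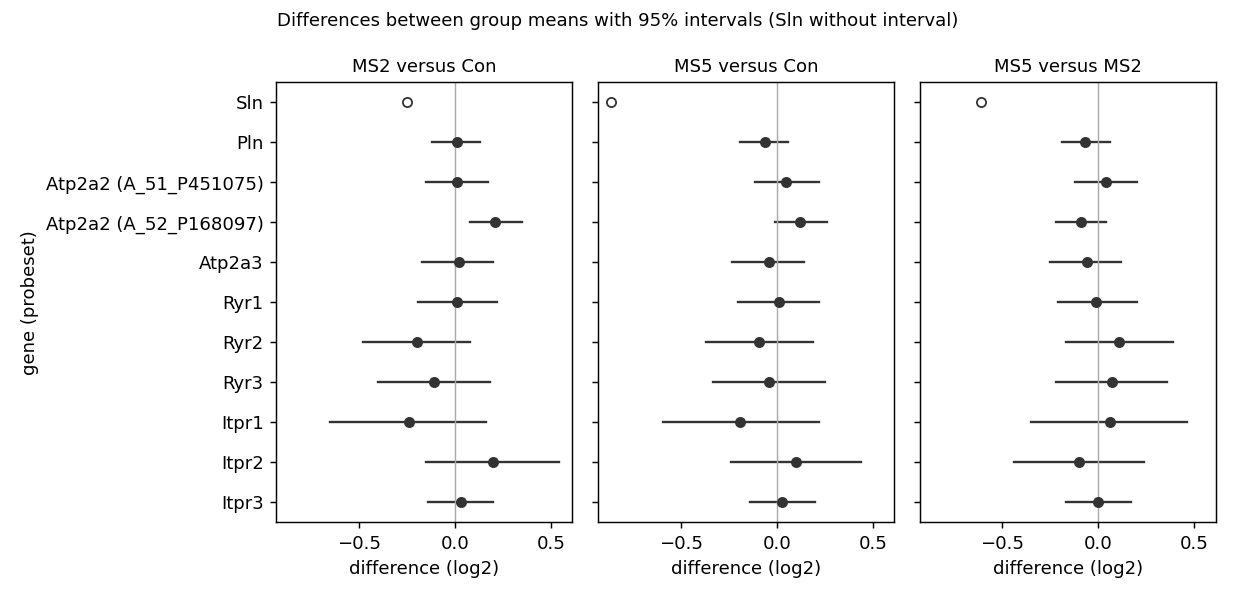
Difference between group means (log2) for each probeset in the 3 contrasts, with the 95% interval of the limma fit as a line. Sln is an open point without interval because it was selected on MS5. Of the intervals drawn, that of Atp2a2 A_52_P168097 in MS2 against Con (0.08 to 0.35) lies off 0.

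Phospholamban was not reliably measured. Its probe was well above background on 1 Con, 2 MS2 and 1 MS5 array, and all levels lay between 5.9 and 6.22. In Con they were 6.01, 6.04, 6.16, 6.13 and 6.03, in MS2 6.06, 6.16, 6.03, 6.15 and 6.01, and in MS5 6.05, 5.96, 5.94, 6.22 and 5.9. The MS5 mean differed from Con by -0.06 (95% interval -0.19 to 0.06, adjusted p = 1 in the limma fit). These values are near background, and no fold is given.

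Atp2a2, which encodes the SERCA2 pump, held the 1 member probeset past the unadjusted threshold. Levels of A_52_P168097 were 9.70, 9.57, 9.60, 9.46 and 9.58 in Con, 9.76, 9.89, 9.76, 9.80 and 9.75 in MS2, and 9.95, 9.70, 9.61, 9.64 and 9.61 in MS5. Every MS2 array lay above every Con array, which held for 0.702% of all probesets in either direction. The MS2 mean was 9.79 ± 0.06 (SD, n = 5) and the Con mean 9.58 ± 0.08, a difference of 0.21 (SE 0.06), or 1.16-fold, with an unadjusted p of 0.0044 and an adjusted p of 0.97 over all probesets in the limma fit. The two-sided exact permutation test gave p = 0.00794, the smallest that 252 assignments of 5 arrays against 5 allow. The difference failed the correction for all probesets. It was 0.21 within slide 1 and 0.21 within slide 2, 0.22 without MS2 replicate 4, and between 0.18 and 0.24 when any 1 array was left out.

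In MS5 the same probe gave 9.70 ± 0.14, 0.12 above Con (interval -0.01 to 0.26, unadjusted p = 0.0719 and adjusted p = 1 in the limma fit). MS5 replicate 8, at 9.95, was the highest of all 15 arrays, and without it the difference was 0.06. With the slide as a block the difference was 0.13 at an unadjusted p of 0.0482 in limma, on the other side of the threshold, with an adjusted p of 1. MS5 and MS2 differed by -0.09 (interval -0.22 to 0.04), and without MS5 replicate 8 by -0.15 at an unadjusted p of 0.00772 in limma, with an adjusted p of 1.

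The second Atp2a2 probe did not separate the groups. Levels of A_51_P451075 were 13.85, 13.61, 13.87, 13.59 and 13.74 in Con, 13.77, 13.61, 13.77, 13.68 and 13.89 in MS2, and 13.88, 13.70, 13.97, 13.75 and 13.64 in MS5. All 3 groups overlapped. The MS2 mean differed from Con by 0.01 (interval -0.15 to 0.17), and the MS5 mean by 0.05 (interval -0.11 to 0.22). The interval of this probe for MS2 against Con ends below the 0.21 found with the other probe, and the difference between the probes was not tested.

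**Figure D4:**
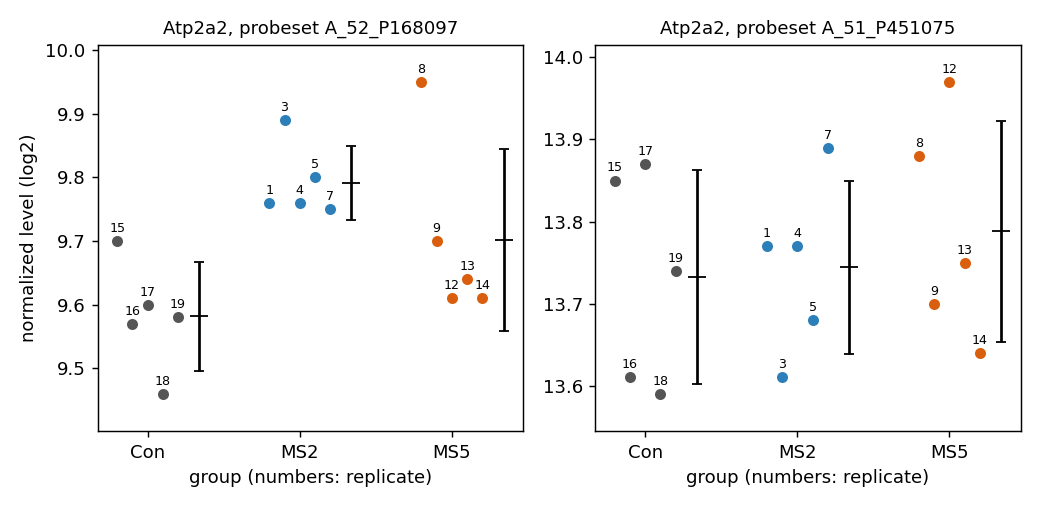
Normalized level (log2) of the Atp2a2 probesets on each array, with replicate numbers and with bars for the group mean and SD. With A_52_P168097 (left) the MS2 arrays, 9.75 to 9.89, lie above the Con arrays, 9.46 to 9.70, and with A_51_P451075 (right) the groups overlap. The axes do not start at 0, and levels are not compared between the panels.

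Atp2a3, the SERCA3 pump, had levels of 8.05, 7.87, 8.05, 7.84 and 7.87 in Con, 7.84, 8.07, 7.95, 8.00 and 7.91 in MS2, and 7.71, 7.67, 8.17, 8.01 and 7.88 in MS5. The MS5 arrays spread on both sides of the control range. The differences from Con were 0.02 in MS2 (interval -0.17 to 0.20) and -0.04 in MS5 (interval -0.23 to 0.14).

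Ryr1, the skeletal muscle form of the ryanodine receptor, had Con levels of 9.72, 9.78, 9.79, 9.75 and 9.67 and MS2 levels of 9.67, 9.81, 9.85, 9.75 and 9.69. In MS5 the levels were 9.82, 9.55, 9.61, 9.58 and 10.19. MS5 replicate 14 was thus the highest of all arrays, and replicates 9, 12 and 13 were the lowest. The means differed from Con by 0.01 in both MS2 (interval -0.19 to 0.22) and MS5 (interval -0.20 to 0.22).

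Ryr2, best known from heart but not confined to it, had levels of 11.16, 10.91, 11.32, 11.08 and 10.98 in Con, 11.03, 10.95, 10.45, 10.78 and 11.25 in MS2, and 10.77, 10.94, 11.08, 11.27 and 10.95 in MS5. MS2 replicate 4 was again the lowest array. The MS2 difference from Con was -0.20 (interval -0.48 to 0.08) with it and -0.09 (interval -0.32 to 0.15) without it, and the MS5 difference was -0.09 (interval -0.37 to 0.19). Without MS2 replicate 7 instead, the MS2 difference was -0.29 at an unadjusted p of 0.038 in limma, with an adjusted p of 0.934.

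Ryr3, a form found in brain, had levels of 11.98, 12.08, 12.11, 12.08 and 12.25 in Con, 11.89, 12.14, 11.46, 12.35 and 12.12 in MS2, and 12.27, 11.98, 11.83, 11.98 and 12.25 in MS5. The MS2 difference from Con was -0.11 (interval -0.40 to 0.18) and 0.02 (interval -0.20 to 0.24) without MS2 replicate 4, so its sign turned with that array. The MS5 difference was -0.04 (interval -0.33 to 0.25).

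Itpr1 encodes the IP3 receptor that predominates in neurons. Its levels were 13.33, 13.49, 13.64, 13.39 and 13.49 in Con, 13.36, 13.43, 12.30, 13.51 and 13.51 in MS2, and 13.34, 13.26, 13.20, 13.55 and 13.04 in MS5. MS2 replicate 4 was about 1 log2 unit below the other MS2 arrays, and all 4 of those lay inside the control range. The MS2 difference from Con was -0.24 (interval -0.65 to 0.16) with it and -0.01 (interval -0.20 to 0.17) without it.

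The MS5 difference of Itpr1 from Con was -0.19 (SE 0.19, interval -0.59 to 0.22, adjusted p = 1 in the limma fit, and p = 0.103 in the two-sided exact permutation test), with 3 of 5 MS5 arrays below all controls. It was -0.01 within slide 1 and -0.32 within slide 2. Without MS2 replicate 4, which enters this contrast through the shared estimate of the spread, the difference stayed at -0.19 and the unadjusted p became 0.0388 in limma, with an adjusted p of 0.809.

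Itpr2, a form known from glia and other non-neuronal cells, had levels of 12.49, 12.50, 12.74, 12.36 and 13.02 in Con, 12.69, 12.60, 13.28, 12.79 and 12.73 in MS2, and 13.07, 12.27, 12.82, 12.83 and 12.62 in MS5. MS2 replicate 4 was the highest array here. The MS2 difference from Con was 0.20 (interval -0.15 to 0.54) with it and 0.08 (interval -0.23 to 0.40) without it. The MS5 difference was 0.10 (interval -0.24 to 0.44), at 0.42 within slide 1 and -0.19 within slide 2.

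Itpr3, the third IP3 receptor, was printed as 10 spots on each array, and the deposited value was that of its first spot. The levels were 10.97, 11.06, 11.00, 11.13 and 10.85 in Con, 10.96, 10.99, 11.37, 10.96 and 10.86 in MS2, and 11.00, 11.02, 11.03, 11.00 and 11.11 in MS5. MS2 replicate 4 was the highest array, and it was so with the mean of the 10 spots too, at 11.52 against 11.05 to 11.29 on the others. The 10 spots had an SD of 0.10 to 0.16 within an array, close to the SD of 0.11 between the Con arrays. The first spot lay below the mean of the 10 on every array, as on Con replicate 15 at 10.97 against 11.11. The SD within an array thus includes a difference between spots that recurs on all arrays. The differences from Con were 0.03 in MS2 (interval -0.14 to 0.20) and 0.03 in MS5 (interval -0.14 to 0.20), and without MS2 replicate 4 the MS2 difference was -0.06 (interval -0.17 to 0.06).

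**Figure D5:**
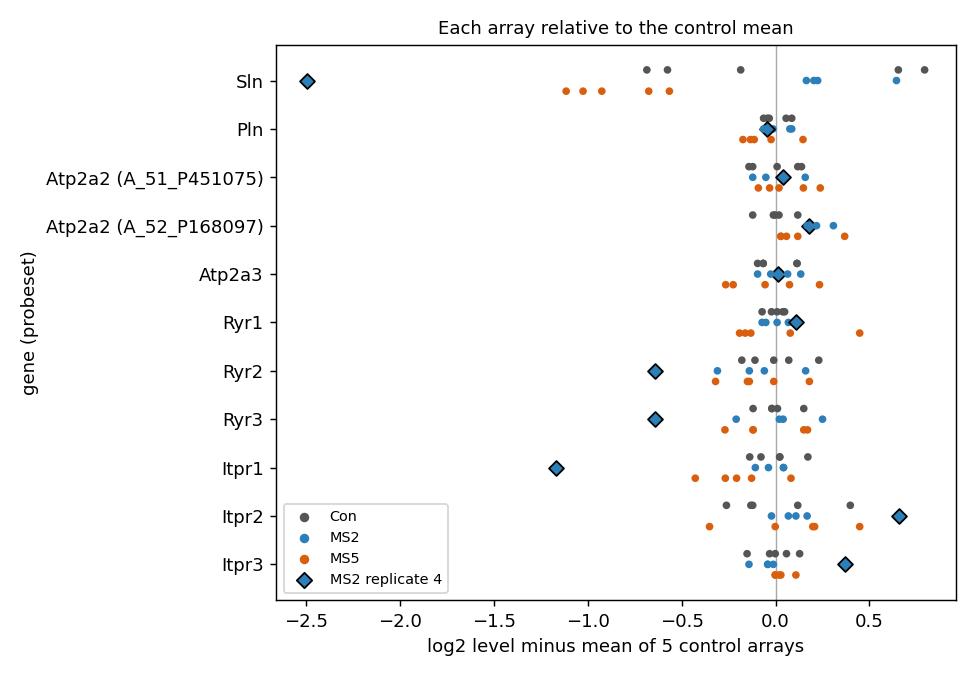
Level of each probeset on each array as the log2 difference from the mean of the 5 Con arrays, with MS2 replicate 4 drawn as a diamond. That array was the lowest of 15 for Sln, Ryr2, Ryr3 and Itpr1 and the highest for Itpr2 and Itpr3. Other arrays also lie away from 0 at genes other than Sln, such as MS5 replicate 14 at Ryr1 (10.19, against a Con mean of 9.74).

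MS2 replicate 4 was the lowest of the 15 arrays at 4 of the 11 probesets and the highest at 2, more extremes than any other array had. Over all probesets its deviations from its group mean had an SD of 0.302, against 0.123 to 0.192 on the other arrays. These extremes were at Sln, a ryanodine receptor pair and the 3 IP3 receptors, and none at the pumps. They moved on the array with the low hippocampal neuron markers and the high thalamus and hypothalamus markers given above, and the part of tissue makeup in them was not tested. Without that array, 1 of the 10 probesets of the other genes passed an unadjusted p under 0.05 in MS5 against Con (Itpr1), 1 in MS2 against Con (Atp2a2) and 0 in MS5 against MS2, against 5.92%, 4% and 6.78% of all probesets, and 0 passed the adjusted threshold. The differences of MS5 from MS2 also moved with it. That of Itpr1 was 0.06 (interval -0.35 to 0.46) with the array and -0.17 (interval -0.36 to 0.01, unadjusted p = 0.066 in limma) without it. That of Ryr2 went from 0.11 to 0, that of Ryr3 from 0.07 to -0.06 and that of Itpr2 from -0.10 to 0.02. That of Itpr3 went from 0 to 0.09 (interval -0.03 to 0.20). With its first spot the 5 MS5 arrays then lay above the 4 MS2 arrays. The share of all probesets with such a gap was not counted. With the mean of its 10 spots these groups overlapped, with MS5 at 11.16 to 11.2 and MS2 replicate 5 at 11.21.

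The wider machinery of the store was read from a list of 51 partner genes, of which 48 were on the array with 77 probesets, 70 of them well above background on all arrays. Mrln, Strit1 and Saraf were not found by name. Of the 77, 2 were lower and 0 higher in MS5 against Con at an unadjusted p under 0.05, against 2.43% and 1.47% of all probesets. In MS2 against Con 2 were lower and 0 higher, against 2.12% and 2.05%. In MS5 against MS2, 3 were higher and 1 was lower, against 1.72% and 2.25%. None passed the adjusted threshold, and the medians over the list were 0, -0.03 and 0.01.

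Of these probesets, 14 belonged to 12 genes of luminal buffers and chaperones. In that list 0 were called in MS5 against Con, against 3.9% of all probesets. In MS2 against Con 2 were called (median -0.06, range -0.24 to 0.07), against 4.17%. In MS5 against MS2 3 were called (median 0.07, range -0.08 to 0.26), against 3.97%. The last 2 contrasts share the MS2 arrays, and counts this small in 14 probesets are no result about the list. Hsp90b1 (GRP94, a chaperone of the store) had levels of 14.57, 14.75, 14.73, 14.58 and 14.65 in Con, 14.65, 14.45, 14.63, 14.36 and 14.52 in MS2, and 14.74, 14.88, 14.76, 14.73 and 14.72 in MS5. Every MS5 array lay above every MS2 array, which held for 0.621% of all probesets in either direction. The MS5 mean was 0.25 above that of MS2 (SE 0.06, unadjusted p = 0.000881 and adjusted p = 1 in limma), and the MS2 mean differed from Con by -0.14 (SE 0.06, unadjusted p = 0.0373 in limma).

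Hspa5 (BiP, the main chaperone of the store) had levels of 15.00, 15.10, 15.00, 15.14 and 15.17 in Con, 15.02, 14.87, 14.92, 14.96 and 14.94 in MS2, and 15.29, 15.48, 15.09, 15.13 and 14.94 in MS5. The MS5 mean was 0.24 above that of MS2 (SE 0.08, unadjusted p = 0.00789 in limma), with overlapping groups. Calr (calreticulin, the calcium buffer of the store in non-muscle cells) had means of 14.56 in Con, 14.41 in MS2 and 14.53 in MS5. Its difference from Con in MS2 was -0.15 (SE 0.05, unadjusted p = 0.0145 in limma), and MS5 lay 0.12 above MS2 (unadjusted p = 0.0421 in limma). MS2 replicate 5, the array with the low median spot signal, was the lowest array for Calr (14.29) and for Hsp90b1 (14.36). Hsp90b1, Hspa5 and Calr were named for a small p in contrasts with MS2, so a low MS2 mean had a part in choosing them. For Hsp90b1 and Hspa5 the MS5 mean also lay above Con, by 0.11 and 0.1, which widened their gap to MS2. All adjusted p were 0.97 or 1.

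Of the partners that act on the release channels, Calm3, 1 of the calmodulin genes, gave 15.82, 15.74, 15.79, 15.92 and 15.72 in Con and 15.64, 15.65, 15.69, 15.71 and 15.60 in MS5 with probeset A_55_P2021841. All MS5 arrays lay below all Con arrays, which held for 0.828% of all probesets in either direction, and the difference was -0.14 (SE 0.05, unadjusted p = 0.00957 and adjusted p = 1 in limma). Its second probeset, A_52_P140356, gave -0.01 (SE 0.07). Between MS5 and MS2 the first probeset differed by -0.10 (unadjusted p = 0.0454 in limma). Itprip, a protein that interacts with the IP3 receptor, had levels of 10.07, 10.20, 9.96, 10.38 and 10.08 in Con, 9.96, 9.84, 9.18, 10.12 and 10.07 in MS2, and 9.52, 10.00, 9.70, 9.91 and 9.59 in MS5. Its MS5 difference from Con was -0.40 (SE 0.15, unadjusted p = 0.0215 and adjusted p = 1 in limma), and MS2 replicate 4 was the lowest array here as well. Without that array the difference was still -0.40, with an SE of 0.10 and an adjusted p of 0.441.

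Without MS2 replicate 4 the partner count for MS5 against MS2 was 10 of 77, 4 higher and 6 lower, against 6.78% of all probesets, and none passed the adjusted threshold. The 6 lower were probesets of Calm3, Itprip, the junctional proteins Jph1 and Asph, and the store-operated channel genes Orai1 and Orai3, at -0.12 to -0.26. The other probesets of Calm3, Asph, Orai1 and Orai3 did not reach an unadjusted p under 0.05 in limma. The 4 higher were Hsp90b1, Hspa5, Hrc and Rcn2, all luminal proteins, at 0.15 to 0.27. Orai1, Orai3, Jph1, Asph, Hrc and Rcn2 were named after their values were seen.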

How the data were processed

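Hippocampal mRNA of 15 pups was measured on 1-colour Agilent arrays, 5 per group. The authors deposited scanner files with the intensity of each spot and a table of log2 values that they had corrected for background with normexp and quantile normalized. Repeating these steps (offset 50) from the scanner files gave the log2 values of all 55821 probes to within 5e-09 when the first spot of each probe was used. Sequencing depth does not apply to arrays, and the number of arrays limits the precision. No spot was saturated, and 67.1% to 79% of spots per array were well above background.

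The deposited log2 values were fitted with limma 3.58.1 (lmFit and eBayes, R 4.3.3) in 1 fit of 3 groups over 55681 non-control probesets, with Benjamini-Hochberg adjustment over all of them and no pseudocount or filter. The steps were tested on simulated data. Exact permutation tests were two-sided. "Well above background" is the scanner software's flag. List signals are sums of linear normalized values over 1 probeset per gene, and slides are those named in the scanner files.

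Every member was named with all its probesets. Partners were named by smallest unadjusted p under 0.05, up to 5 per contrast, and genes like Sln by the 5 highest r. Members, lists and rules were chosen with earlier results of these data known. Alternatives were averaging the spots of a probe, normexp without an offset (0), the processed signal of the scanner software set relative to each array's 75th percentile, array weights, the slide as a block, only the 2 groups compared, a filter on dim probes, and each array left out. Dropping MS2 replicates 4 and 5 and MS5 replicate 9 together was chosen after seeing the data. The miR arrays and PCR measurements were not analysed here. Marker lists were of choroid plexus, skeletal, heart and smooth muscle, blood, thalamus and hypothalamus, hippocampal neurons and Purkinje cells; of the 4 Purkinje genes found, 0 passed an unadjusted p under 0.05 in any contrast.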

Additional observations from a re-analysis of the deposited data

Results flagged for a closer look

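In 33 sets of 5 arrays (11 probesets in 3 groups), 6 held an array whose gap to its nearest neighbour exceeded Dixon's limit of 0.71 of the range. Chance alone passes this limit in about 1 of 20 such sets. Of the 6, 4 were on MS2 replicate 4, the array with the low hippocampal neuron markers. Sln lay there at 6.87 (log2) against 9.53 to 10.01 on the other MS2 arrays. Itpr1 lay at 12.3 against 13.36 to 13.51. Itpr2 lay at 13.28 against 12.60 to 12.79, and Itpr3 at 11.37 against 10.86 to 10.99. The other 2 were in MS5: Atp2a2 A_52_P168097 at 9.95 on replicate 8, and Itpr3 at 11.11 on replicate 14.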

How the results depend on the processing

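No paired analysis was possible, because each pup is in 1 group and the litter of each pup is not given in the labels. For Sln, each alternative kept the sign of MS5 against Con, at -0.96 to -0.81 over the settings with all arrays and -1.03 to -0.66 with 1 array left out. Since Sln was selected on its MS5 level on these arrays, that sign was largely set in advance. MS2 against Con ran from -0.48 to 0.31 and MS5 against MS2 from -1.17 to -0.39 with 1 array left out. With the 3 doubted arrays dropped together, these were -0.85, 0.34 and -1.19. Of the 10 other member probesets, 0 to 1 passed an unadjusted p under 0.05 in MS5 against Con, 1 to 2 in MS2 against Con and 0 to 1 in MS5 against MS2 with 1 array left out (Atp2a2 without Con replicate 15, MS5 replicate 8, 12 or 14, Itpr1 without MS2 replicate 4, Ryr2 without MS2 replicate 7, Pln without MS5 replicate 13), and 1 (Atp2a2) in MS5 against Con with the slide as a block; 0 passed the adjusted threshold under any alternative.

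Partner counts at that p, out of 77, ran from 1 to 4 (MS5 against Con), 1 to 5 (MS2 against Con) and 2 to 10 (MS5 against MS2) with 1 array left out. They were lowest without Con replicate 18 or MS5 replicate 8, without Con replicate 16 or 17 or MS2 replicate 3, and without MS2 replicate 3 or 5 or MS5 replicate 8, and highest without Con replicate 15 or MS5 replicate 12 or 13, without MS2 replicate 5, and without MS2 replicate 4. An offset of 0 gave 1 in MS2 against Con and 2 in MS5 against MS2, the processed signal 0 and 2, and the dim-probe filter 2 in MS5 against MS2. Array weights gave 4 in MS5 against Con and 7 in MS5 against MS2, fitting only the 2 groups gave 5 in MS5 against Con, and dropping the 3 arrays gave 4, 5 and 9 in the order above. For Pln, MS5 against Con moved to -0.3 at offset 0 and -0.51 with the processed signal. Pln lay near background, the second setting changed both background treatment and scaling, and the cause was not tested. Of the single member values recomputed, 673 kept their side of the unadjusted threshold and moved by less than the spread, 9 crossed to an unadjusted p under 0.05 in limma (8 of them with 1 array left out), 5 moved further (all Pln), and the sign of a called value turned in none. Dim probes such as Pln, and differences below the spread between 5 arrays, could not be resolved here.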
